A study of Mus musculus with 4 samples.

Results

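The 10 genes examined here encode the constant parts of mouse antibodies and the chain that joins them. They are Ighm, Ighd, Ighg1, Ighg2b, Ighg2c, Ighg3 and Igha, the heavy chain genes of IgM, IgD, the 4 IgG subclasses and IgA. The others are Igkc and Iglc2, for kappa and one lambda light chain, and Jchain, for the joining chain of polymeric IgM and IgA. They were chosen by name out of 32285 genes in the count matrices. Their levels were read in 4 gates set on UMI counts, where a UMI (unique molecular identifier) stands for 1 captured transcript. Naive B cells held Cd79a, part of the B cell receptor, and Ighd, with no Cd3e, part of the T cell receptor complex. IgD-negative B cells held Cd79a but neither Ighd nor Cd3e. Jchain-high cells held at least 5 Jchain UMIs and no Cd3e. T cells held Cd3e and no Cd79a, and served as cells that do not make antibody. Free RNA, the transcripts from broken cells, can give them UMIs too. The gates held 14246 naive B, 604 IgD-negative B, 163 Jchain-high and 14411 T cells out of 33310 filtered cells, and most Jchain-high cells were also in one of the B cell gates.

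The cells came from draining lymph nodes of wild-type C57BL/6 mice, with 2 libraries of the EV group and 2 of the Control group, each a biological replicate by the study's methods. EV mice were injected under the skin with 100 µg of extracellular vesicles, small membrane particles, from human induced pluripotent stem cells (iPSC EVs). The study's methods place the harvest at 5 days and name PBS for the controls, whereas the sample labels give 24 h and no treatment for the controls. All groups share strain, genotype and tissue, no cell type was enriched, and age and sex are not given in the sources used here.

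B cells make IgM and IgD first, both from one long transcript. Class switch recombination then replaces the IgM gene by a downstream one, after which the cell makes IgG, IgE or IgA with the same antigen specificity. Cells that turn into plasma cells raise the output of heavy and light chains greatly. Each B cell normally keeps 1 heavy chain class after switching and either kappa or lambda. The class was therefore read cell by cell from the gene that led a cell's UMIs. Some cells held several classes, such as a Jchain-high cell of EV 2 with 32 Ighm and 82 Ighg1 UMIs. Below, class-switched names transcripts of the IgG genes and Igha. Whether the DNA of a cell had recombined was not tested. Gene-level UMI counts do not separate the membrane-bound from the secreted form.

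The libraries held 50749656 to 70418672 UMIs, with a median of 5519 to 6728.5 UMIs per cell. Between 11 and 25 barcodes were shared by each pair of libraries, 0.138% to 0.298% of the cells. Doublet scores passed the caller's threshold in 2.15% to 3.58% of cells, which stayed in unless stated. In the B cell gates the summed B cell markers (7 genes) reached 12276 to 13625 UMIs per 1000000 UMIs of the gate (CPM) in naive and 5062 to 7485 CPM in IgD-negative cells, against 24.3 to 33.5 CPM in T cells. These markers include Cd79a, which the B cell gates require and the T cell gate excludes. The T cell markers include Cd3e, which the B cell and Jchain-high gates exclude, so both sums are fixed in part by the rules. IgD-negative cells also held T cell markers (7 genes), at 397 to 626 CPM in Control against 97.2 to 120 CPM in EV, and macrophage markers (6 genes) at 189 to 816 CPM. Jchain-high cells held 4.67 to 29.0 CPM of T cell markers and 2.67 to 15.4 CPM of macrophage markers. In these cells markers of plasmacytoid dendritic cells (5 genes) were at 542 CPM in Control 1. They were at 74.7 CPM in Control 2, 43.2 in EV 1 and 76.4 in EV 2. The part of all these markers in the results was not tested. Where values are set against each other below, those of Control 1 and Control 2 stand before those of EV 1 and EV 2.

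All members but the light chains and Jchain lie in one cluster on the minus strand of chromosome 12 (GRCm38, the assembly of mm10, with GENCODE vM21 coordinates). In the order of transcription this cluster runs from Ighm (chr12:113418558-113422730) through Ighd (chr12:113406604-113416324), Ighg3 (chr12:113356224-113361232), Ighg1 (chr12:113325240-113330523), Ighg2b (chr12:113302965-113307933) and Ighg2c (chr12:113285325-113288932) to Igha (chr12:113254830-113260236). Igkc is at chr6:70726435-70726966 on the plus strand. Iglc2 (chr16:19198396-19200351) and Jchain (chr5:88519809-88527891) are on the minus strand. The 4 IgG genes are set apart by the hinge exon, which carries the cysteines that tie the heavy chains of an antibody together. These exons are shown as a part in which the IgG genes differ. The libraries read transcript 3′ ends, so the UMIs that told the IgG genes apart need not come from them. Each is coding, written 5′ to 3′ in the sense of the gene, with in-frame cysteine codons in capitals. They lie at chr12:113329844-113329882 (Ighg1), chr12:113307261-113307326 (Ighg2b), chr12:113288263-113288325 (Ighg2c) and chr12:113360529-113360576 (Ighg3).
Ighg1: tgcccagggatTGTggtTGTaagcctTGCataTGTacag
Ighg2b: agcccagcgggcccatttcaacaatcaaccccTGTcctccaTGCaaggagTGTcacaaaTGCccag
Ighg2c: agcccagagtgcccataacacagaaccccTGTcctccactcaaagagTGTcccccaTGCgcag
Ighg3: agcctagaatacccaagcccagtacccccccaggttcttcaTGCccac
The Ighg1 and Ighg2b hinges each hold 4 cysteine codons, that of Ighg2c 3 and that of Ighg3 1. Over the whole coding sequence Ighg2b and Ighg2c were 85.6% identical, and the other IgG pairs 74.4% to 76.4%. Of all 50-base windows, 5.26% of those of Ighg2b occurred unchanged in Ighg2c and none of either in Ighg1 or Ighg3. Counts of Ighg2b and Ighg2c could therefore share reads in part. The windows cover the whole transcript and were not limited to the 3′ ends that were read. Iglc2 was 96.2% identical to Iglc3 and 73.8% to Iglc1, so Iglc2 and Iglc3 cannot be fully told apart.

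Jchain is followed in the cells below, and its partner site is at the very end of the secreted IgM and IgA chains. The last 60 coding bases of the secreted forms show it, at chr12:113420867-113420926 (Ighm), chr12:113258768-113258827 (Igha) and chr12:113328976-113329035 (Ighg1). The capitals mark the cysteine codon before the last residue, to which the joining chain is linked.
Ighm: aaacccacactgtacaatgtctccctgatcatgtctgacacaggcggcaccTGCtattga
Igha: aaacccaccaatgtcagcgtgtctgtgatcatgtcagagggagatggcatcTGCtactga
Ighg1: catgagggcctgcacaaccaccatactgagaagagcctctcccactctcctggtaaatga
The end of Ighg1 holds 0 in-frame cysteine codons, as do those of the other 3 IgG genes.

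Across the whole node the EV libraries held more transcripts of Ighg1, Ighg3, Jchain, Igkc and Ighd. Ighg1 had 25 and 34 UMIs in Control against 2483 and 10372 in EV. This was 0.495 and 0.590 against 36.7 and 148 CPM, a log2 fold change of 7.42 ± 0.86 (SE, n = 2 against 2, edgeR adjusted p = 0.0077). Both EV libraries were far above both controls, with EV 2 the higher of them. One cell held 51.6% of the Ighg1 UMIs of EV 1 and one 29.6% of those of EV 2. The log2 fold change was 3.37 within the study's upper limits of 20000 UMIs and 5000 genes per cell, 5.10 after every cell was thinned to 1000 UMIs, and 6.09 to 8.09 when each library was left out, and edgeR called it in each. In sums over a whole node, more cells of a kind and more RNA per cell cannot be told apart. Ighg3 had 12 and 26 UMIs in Control against 267 and 1322 in EV (log2 5.04 ± 0.86, edgeR adjusted p = 0.020). Here too both EV libraries were above both controls, although 1 cell held 74.2% of the UMIs in EV 1 and 1 held 89.1% in EV 2.

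Jchain was at 22.0 and 24.9 against 50.2 and 86.9 CPM (log2 1.57 ± 0.24, edgeR adjusted p = 0.016). Igkc was at 2021 and 1786 against 3519 and 3525 CPM (log2 0.91 ± 0.13, edgeR adjusted p = 0.014). Ighd was at 338 and 264 against 475 and 438 CPM (log2 0.62 ± 0.13, edgeR adjusted p = 0.032). Igkc and Ighd are made by most B cells, and the B cell gates made up more of the EV libraries. Naive B cells were 35.4% and 29.9% of Control against 56.4% and 48.2% of EV cells (32.7 ± 3.88 against 52.3 ± 5.76, SD, n = 2 each). With 2 libraries against 2, the exact two-sided permutation test cannot give less than p = 0.333, which it gave here. Ighd was no longer called without Control 2 (log2 0.46), nor after thinning. Jchain was not called within the study's upper limits (log2 0.88, edgeR adjusted p = 0.11) or after thinning (log2 0.42, edgeR adjusted p = 0.30).

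Ighm (log2 0.47 ± 0.14, edgeR adjusted p = 0.076), Igha (0.73 ± 0.24, 0.10) and Iglc2 (0.25 ± 0.10, 0.17) did not pass. Ighg2b and Ighg2c did not pass either. Ighg2b had 5 and 3397 UMIs in Control against 1294 and 330 in EV. Ighg2c had 15 and 1571 against 130 and 289 UMIs. Control 2 was highest and Control 1 lowest for both genes. In Control 2 a single cell held 90.8% of the Ighg2b and another 97.9% of the Ighg2c UMIs. In all, 5 of the 10 members were called higher and 0 lower over all cells, where 10.8% of 16311 tested genes were called, 6.95% higher and 3.86% lower. DESeq2 called 6 members and 2172 genes in all. The members' median log2 fold change was 0.68 and that of all genes -0.003.

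**Figure D1:**
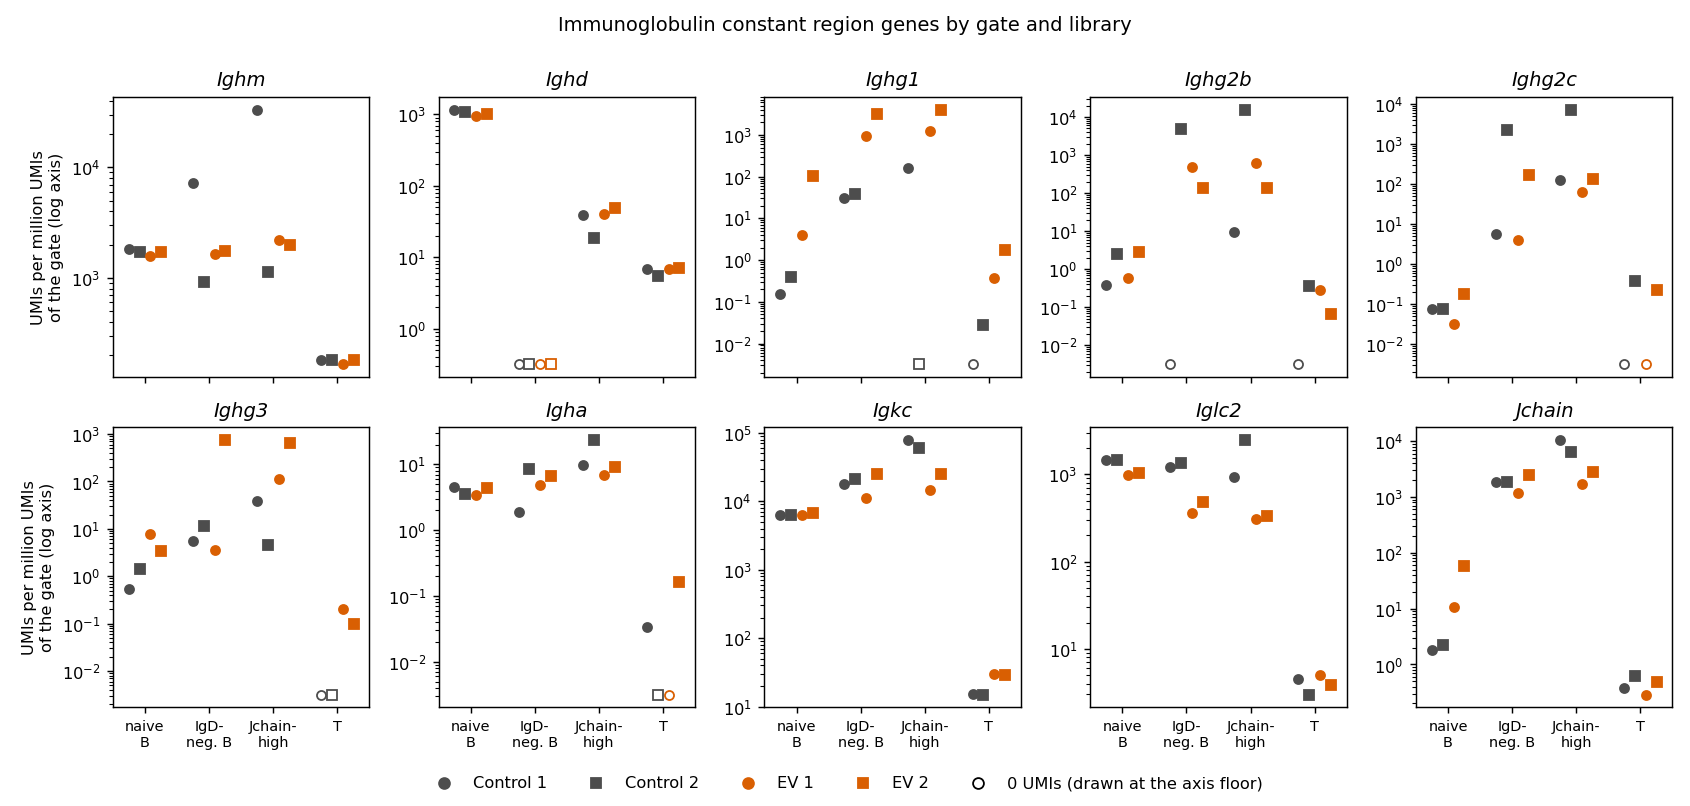
Level of each of the 10 genes in CPM of the gate (log axis) in naive B, IgD-negative B, Jchain-high and T cells, with 1 point per library (grey Control, orange EV) and open points for 0 UMIs. Ighg1 sits higher in both EV libraries than in both Control libraries in every gate, whereas Ighg2b and Ighg2c spread as widely within the Control group as between groups.

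Within naive B cells the genes of the main heavy and light chain did not pass the test. Ighm, the IgM heavy chain, was at 1834 and 1723 against 1573 and 1730 CPM (log2 -0.07 ± 0.12, edgeR adjusted p = 0.78). Igkc was at 6370 and 6282 against 6320 and 6739 CPM (log2 0.08 ± 0.13, edgeR adjusted p = 0.76). Ighd, which chose the cells, was at 1159 and 1076 against 961 and 1012 CPM. Ighm took 61.2%, 61.4%, 61.7% and 60.6% of their heavy chain UMIs in Control 1, Control 2, EV 1 and EV 2.

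Jchain, Ighg3 and Iglc2 passed in the naive gate. Jchain rose from 1.81 and 2.26 to 10.7 and 57.3 CPM (log2 4.09 ± 0.82, edgeR adjusted p = 0.037), and 1 cell of EV 2 held 47.0% of its UMIs there. Ighg3 was at 0.527 and 1.40 against 7.75 and 3.35 CPM (log2 2.57 ± 0.52, edgeR adjusted p = 0.038). One cell held 81.5% of the Ighg3 UMIs of EV 1 and one 55.4% of those of EV 2. Iglc2 was lower, at 1456 and 1476 against 972 and 1022 CPM (log2 -0.52 ± 0.11, edgeR adjusted p = 0.040).

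Ighg1 had 2, 5, 127 and 2807 UMIs in naive B cells and did not pass (log2 7.62 ± 1.95, edgeR adjusted p = 0.068). One cell of EV 2 held 84.5% of the 2807. A naive B cell by this gate needs only 1 Ighd UMI, and 2, 1, 17 and 32 Jchain-high cells of the 4 libraries also lay in it. Ighg2c (1 to 5 UMIs per library) was too low to test. Of the 8 members tested that the gate did not use, 2 were called higher and 1 lower, where 3.87% of 13214 genes were called (2.46% higher, 1.41% lower). Within the study's upper limits Jchain (log2 1.30, edgeR adjusted p = 0.11), Ighg3 (2.57, 0.18) and Iglc2 (-0.46, 0.071) lost their call. Leaving out either Control library also removed the call of Iglc2 (log2 -0.53 and -0.49, edgeR adjusted p = 0.33 and 0.30).

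IgD-negative B cells made up 1.44% and 1.5% of Control against 2.57% and 1.72% of EV cells (1.47 ± 0.0455 against 2.14 ± 0.595, SD, n = 2 each, exact permutation p = 0.333). Within the study's upper limits the groups overlapped, at 1.44%, 1.47%, 2.24% and 1.47%. The EV minus Control difference was 0.25 percentage points without EV 1 and 1.09 without EV 2. In these cells Ighg1 had the smallest adjusted p of the 8 members tested. It had 17 and 27 UMIs in Control, all in 1 cell each. EV 1 held 2329 and EV 2 held 5189, of which 1 cell held 55.0% and 59.1%. In CPM this was 31.7 and 38.6 against 930 and 3152 (log2 5.79 ± 0.57, edgeR adjusted p = 0.0021). Without the cell with the most heavy chain UMIs of each library Ighg1 was still called (4.91, 5.7e-05). In EV 2 the cell left out held 3069 Ighg1 UMIs, but in EV 1 it was led by Ighm and held 0. The EV 1 cell with 55.0% of the Ighg1 UMIs thus stayed in this fit.

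Cells with an Ighg1 UMI were more frequent in both EV libraries than in both controls. They were 1 of 118 (0.847%, 95% Wilson interval 0.150% to 4.64%) in Control 1 and 1 of 120 (0.833%, 0.147% to 4.57%) in Control 2. In EV 1 they were 45 of 215 (20.9%, 16.0% to 26.9%) and in EV 2 29 of 151 (19.2%, 13.7% to 26.2%). These and the later intervals cover counting error only. With the gate kept and its cells then thinned to 1000 UMIs the shares were 0.870%, 0.893%, 7.18% and 8.22%. T cells, which do not make antibody, held an Ighg1 UMI in 0%, 0.0227%, 0.362% and 1.40% of cells, below the IgD-negative shares in every library. The T cells were the deeper ones, with medians of 6568, 7636, 8888 and 8222.5 UMIs against 3737, 4423, 5458 and 5629 in IgD-negative cells.

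The levels of the other heavy chain classes overlapped between the groups. Ighg2b had 0, 3347, 1251 and 223 UMIs in Control 1, Control 2, EV 1 and EV 2. Ighg2c had 3, 1549, 10 and 275, and Ighg3 had 3, 8, 9 and 1225. In each of these genes 1 cell held most UMIs of the highest library (92.1%, 99.3% and 96.2%). Igha, the IgA heavy chain, had 1 to 12 UMIs per library and was not tested. Ighm was at 7200, 916, 1636 and 1755 CPM (log2 -1.29 ± 0.65, edgeR adjusted p = 0.30). Jchain was at 1825, 1841, 1183 and 2470 CPM (log2 -0.06 ± 0.29, edgeR adjusted p = 0.95), and Igkc did not pass either (-0.14 ± 0.29, 0.84).

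Iglc2 was lower in IgD-negative cells after EV, at 1210 and 1361 against 360 and 487 CPM (log2 -1.65 ± 0.22, edgeR adjusted p = 0.0077). Of 8 members tested, 1 was thus called higher and 1 lower, where 3.52% of 8970 genes were called (2.17% higher, 1.35% lower). Within the study's upper limits neither Ighg1 (log2 2.54, edgeR adjusted p = 0.092) nor Iglc2 (-0.95, 0.068) was called.

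The EV response of 4 of 9 members differed between the B cell gates in an edgeR interaction test with library as a block. All 4 differences, IgD-negative minus naive, were negative, and 2.69% of 12981 genes passed this test. For Jchain the difference of log2 fold changes was -3.73 ± 0.30 (edgeR adjusted p = 1.8e-08) and for Iglc2 -1.05 ± 0.14 (5.1e-05). Those of Ighg2b (-3.17 ± 0.86, edgeR adjusted p = 0.045) and Ighg2c (-4.14 ± 1.13, 0.046) rested on Control 2. Without that library they were 12.71 and 3.40. Without EV 2 they were -0.84 and -7.04 and neither was called, and without EV 1 Ighg2c was not called (-3.79, edgeR adjusted p = 0.057). After thinning, the difference for Jchain was 0.72 and for Iglc2 -0.08, and neither was called (edgeR adjusted p = 0.99 and 0.98). For this fit the gates were drawn again on the thinned counts. The IgD-negative gate then held 1014, 866, 1911 and 1572 cells instead of 118, 120, 215 and 151, so it does not compare the same cells. The Ighg1 response did not differ detectably between the gates (-0.77 ± 1.10, edgeR adjusted p = 0.83).

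Jchain-high cells were rare and more frequent after EV. They were 10 of 8191 cells (0.122%, 95% Wilson interval 0.0663% to 0.225%) in Control 1 and 18 of 7974 (0.226%, 0.143% to 0.357%) in Control 2. EV 1 held 62 of 8382 (0.740%, 0.577% to 0.947%) and EV 2 73 of 8763 (0.833%, 0.663% to 1.05%). The mean share was 4.52-fold higher in EV (0.174 ± 0.0733 against 0.786 ± 0.0660, SD, n = 2 each, exact permutation p = 0.333). The EV cells were also deeper, with a median of 26874 and 23174 UMIs against 8651.5 and 11223.5. The gate counts UMIs, so depth enters it. After thinning all cells to 1000 UMIs the EV share was 1.78-fold higher, within the study's upper limits 2.16-fold, and with at least 5 Jchain UMIs per 10000 UMIs of the cell, a limit chosen after seeing the data, 3.09-fold. Both EV libraries were above both controls in each of these. After thinning, however, the gate drawn again held 5, 4, 7 and 10 cells, and the Wilson intervals overlapped between the groups (0.0263% to 0.144% in Control 1 against 0.0410% to 0.175% in EV 1). With at least 20 Jchain UMIs the share was 0.0488%, 0.0502%, 0.334% and 0.388%. Just inside the threshold, at 5 or 6 UMIs, lay 0, 5, 8 and 8 cells, and just outside, at 3 or 4, lay 3, 9, 13 and 6, in the library order Control 1, Control 2, EV 1 and EV 2.

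The Jchain-high cells were divided by how much of their RNA was immunoglobulin. A cell was called immunoglobulin-rich where all immunoglobulin genes, variable segments and Jchain included, took over 10% of its UMIs. This limit was set after the values were seen. Rich cells numbered 5, 5, 4 and 9 in Control 1, Control 2, EV 1 and EV 2. They were 0.0610%, 0.0627%, 0.0477% and 0.103% of all filtered cells, and at this limit the groups overlapped. Next below it lay cells at 4.12%, 6.30%, 7.65% and 9.02% in EV 1 and 4.58% in Control 2. The overlap therefore depends on where the limit is set. The other Jchain-high cells numbered 5, 13, 58 and 64, or 0.0610%, 0.163%, 0.692% and 0.730%, with both EV libraries above both controls. The larger number of Jchain-high cells in EV thus lay mainly among cells with at most 10% immunoglobulin UMIs. This limit is a share of a cell's UMIs, so a deep cell below it can hold more immunoglobulin UMIs than a shallow rich cell.

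The following genes, which the gate did not use and which were named after their values were seen, are given as counts of cells pooled over the libraries of a group, with no test. Mki67, a gene of dividing cells, was seen in 2 of 10 Control and 5 of 13 EV rich cells, and in 9 of 18 and 104 of 122 others. Sdc1, a plasma cell surface protein, was seen in 4 of 10 and 8 of 13 rich cells and in 0 of 18 and 5 of 122 others. Ms4a1, the B cell protein CD20, was seen in 0 of 10 and 6 of 13 rich cells and in 16 of 18 and 118 of 122 others. Mzb1, a chaperone of antibody assembly, was seen in all rich cells and in 17 of 18 and 122 of 122 others. Median depth was 1918.5 and 19874 UMIs in rich and 11223.5 and 24644.5 in other cells of Control and EV, and 77 of the 122 other EV cells passed 20000 UMIs against 2 of 18 in Control.

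Jchain chose these cells and is counted in the immunoglobulin share, so its counts are a description with no test. Rich cells held a median of 88 Jchain UMIs in Control (range 14 to 854) and 392 in EV (10 to 940). The others held a median of 8 (5 to 14) and 17 (5 to 569). Rich cells carried 94.1%, 94.1%, 22.1% and 73.7% of the immunoglobulin UMIs of the Jchain-high gate in Control 1, Control 2, EV 1 and EV 2. In EV 1, cells below the limit at 4.12%, 7.65% and 9.02% held 4648, 4377 and 7357 immunoglobulin UMIs. In Control 2 a rich cell of 552 UMIs held 146.

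**Figure D2:**
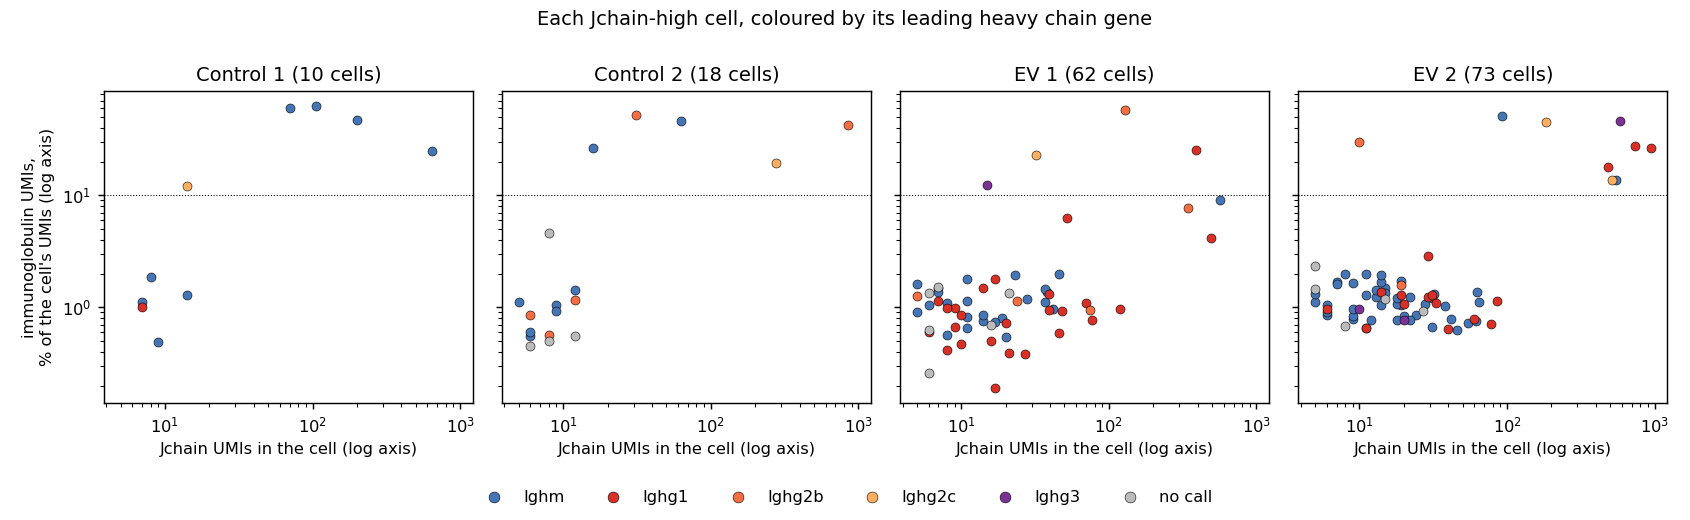
Each of the 163 Jchain-high cells, with its Jchain UMIs (log axis) against the share of its UMIs from immunoglobulin genes (log axis), 1 panel per library, coloured by the leading heavy chain gene. The dotted line marks 10%, above which lie 5, 5, 4 and 9 cells in Control 1, Control 2, EV 1 and EV 2, while most of the 62 and 73 EV cells lie below it.

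In the summed counts of Jchain-high cells Ighg1 was higher and the light chains were lower in EV. Ighg1 had 17, 0, 2387 and 7790 UMIs in Control 1, Control 2, EV 1 and EV 2 (log2 5.31 ± 0.80, edgeR adjusted p = 0.012). DESeq2 did not call it (log2 4.86, adjusted p = 0.55). In EV 1 a single cell held 1280 of the Ighg1 UMIs, and in EV 2 single cells held 3069, 2373 and 1843 of them. The log2 fold change ran from 3.97 without Control 2 to 14.78 without Control 1, whose 17 UMIs are all those of Control. Cells with an Ighg1 UMI were 1 of 10 (10%), 0 of 18 (which allows up to 16.7%), 35 of 62 (56.5%) and 35 of 73 (47.9%). With the gate kept and its cells then thinned they were 10%, 0%, 22.6% and 19.4%.

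Igkc was at 78217 and 59444 against 14670 and 24858 CPM (log2 -1.91 ± 0.22, edgeR adjusted p = 0.0013). The cell with the most Igkc held 3384 of 8084 UMIs in Control 1 and 7868 of 12725 in Control 2. In EV 1 it held 4204 of 27484 and in EV 2 9128 of 48505. Iglc2 was at 939 and 2462 against 305 and 330 CPM (log2 -2.55 ± 0.34, edgeR adjusted p = 0.0053). Jchain itself, which chose the cells, was at 10430 and 6302 against 1734 and 2853 CPM. Immunoglobulin-rich cells were 50% and 27.8% of the Control gate and 6.45% and 12.3% of the EV gate. Their part in the falls was not tested. Ighg2c was called lower (log2 -5.31 ± 1.02, edgeR adjusted p = 0.037), but its groups overlapped, at 126, 7203, 63.0 and 139 CPM. Without Control 2 its log2 fold change was -0.34 (edgeR adjusted p = 0.78).

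Ighm (log2 -3.12 ± 0.85, edgeR adjusted p = 0.14), Ighg2b (-4.48 ± 1.33, 0.18), Ighg3 (4.45 ± 1.03, 0.093), Igha (-1.30 ± 0.76, 0.58) and Ighd (0.71 ± 0.52, 0.68) did not pass. Of the 9 members not used by the gate, 1 was called higher and 3 lower. In this gate 0.408% of 8085 genes were called, 0.0989% higher and 0.309% lower. Within the study's upper limits edgeR called 0 of 3361 genes, with 147 at an unadjusted p under 0.05, and Ighg1 was at log2 2.85, Igkc at -1.24 and Iglc2 at -0.67.

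Heavy chain class was also read cell by cell. A cell was given a leading heavy chain gene where 1 gene had at least 3 UMIs and over 50% of the cell's heavy chain UMIs. In IgD-negative B cells Ighg1 led in 1, 1, 26 and 13 cells of Control 1, Control 2, EV 1 and EV 2. These were 0.847%, 0.833%, 12.1% and 8.61% of the gate (0.840 ± 0.00999 against 10.4 ± 2.46, SD, n = 2 each, exact permutation p = 0.333). In Jchain-high cells it led in 1, 0, 25 and 16 cells (10%, 0%, 40.3% and 21.9%). Both EV libraries were above both controls in each gate. Naive B cells led by Ighg1 numbered 0, 0, 2 and 7, and T cells 0, 0, 0 and 1.

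Ighm led most IgD-negative cells of every library. It led 69.5%, 51.7%, 57.7% and 62.9% of IgD-negative cells in Control 1, Control 2, EV 1 and EV 2, with the groups overlapping. Ighg2b led 0, 11, 8 and 3 of them. By the same rule Ighm also led 17.6%, 20.4%, 22.5% and 22.4% of T cells. Median heavy chain UMIs of Ighm-led cells were 7, 7, 7.5 and 9 in the IgD-negative gate and 3, 4, 4 and 4 in T cells. Among Jchain-high cells Ighm led 8, 8, 24 and 45, Ighg2b 0, 5, 5 and 2, Ighg2c 1, 1, 1 and 2, and Ighg3 0, 0, 1 and 3. No IgD-negative or Jchain-high cell was led by Igha. None was led by Ighd either, which the rule of the IgD-negative gate excludes. Of the 69 EV Jchain-high cells led by Ighm, 59 held Mki67, and of the 41 led by Ighg1, 36 did. All 5 Jchain-high cells led by Ighg2c, 2 Control and 3 EV, were immunoglobulin-rich. In the EV libraries the median of Jchain UMIs per heavy chain UMI was 0.302 and 0.346 in Jchain-high cells led by Ighm. It was 0.709 and 0.742 in those led by Ighg1. Ighm-led cells of Control were at 0.305 and 0.525. Median heavy chain UMIs in EV were 58.5 and 65 for Ighm and 29 and 41 for Ighg1. The gate requires at least 5 Jchain UMIs, so this ratio depends on the rule and is a description with no test.

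The class-switched share of heavy chain transcripts gave no such separation. In IgD-negative cells the 4 IgG genes and Igha took 0.617%, 88.5%, 46.8% and 70.5% of heavy chain UMIs (44.6 ± 62.1 in Control against 58.7 ± 16.8 in EV, SD, n = 2 each, exact permutation p = 1.0). In Jchain-high cells they took 1.04%, 95.2%, 47.9% and 70.6% (48.1 ± 66.6 against 59.3 ± 16.1). The Control libraries lay at both ends and the EV libraries between them. Without Control 1 the EV minus Control difference in IgD-negative cells was -29.8 percentage points, and without Control 2 it was 58.1. One cell made much of each total. The cell with the most heavy chain UMIs was led by Ighm in Control 1 (1791 heavy chain UMIs, 51.7% of those of the Jchain-high gate), by Ighg2b in Control 2 (3086, 60.7%), by Ighm in EV 1 (2365, 29.3%) and by Ighg1 in EV 2 (3128, 23.0%). None was called a doublet.

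Without those cells the IgD-negative share was 1.14%, 74.3%, 67.6% and 56.8%. Counted by cells in the IgD-negative gate, both EV libraries were above both controls, by a narrow margin over Control 2. Switched genes led 1.20%, 17.3%, 21.5% and 17.4% of IgD-negative cells with a leading gene, and 20%, 42.9%, 57.1% and 33.8% of Jchain-high cells, where the groups overlapped. Nearly all switched transcripts were of IgG. IgG genes took 97.2%, 99.9%, 99.7% and 99.8% of the switched UMIs of Jchain-high cells. Ighg1 took 0.437% and 0.484% of all heavy chain UMIs in IgD-negative cells of Control against 30.2% and 52.9% of EV.

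**Figure D3:**
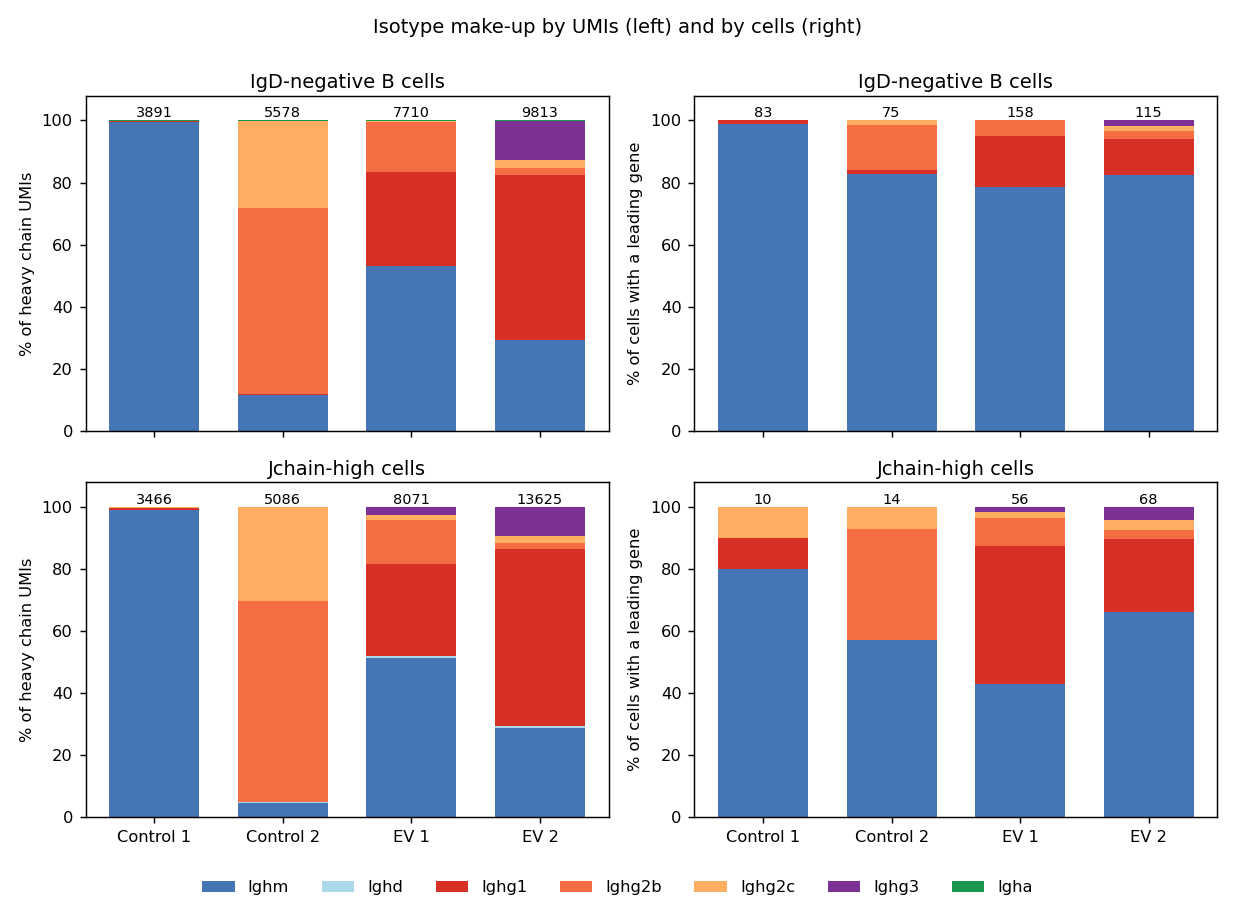
Share of each heavy chain gene in IgD-negative B cells (top) and Jchain-high cells (bottom), as a percentage of heavy chain UMIs (left) and of cells with a leading gene (right), 1 bar per library with the total above it. Ighg1 (red) fills 29.6% to 57.2% of the EV bars and at most 0.490% of the Control bars of UMIs, where Ighm fills Control 1 and Ighg2b with Ighg2c fills Control 2.

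The Iglc2 share of Igkc plus Iglc2 transcripts, which leaves out the other lambda genes, was lower in EV in both B cell gates. In naive B cells Iglc2 took 18.6% and 19.0% of Igkc plus Iglc2 UMIs in Control against 13.3% and 13.2% in EV (18.8 ± 0.299 against 13.2 ± 0.112, SD, n = 2 each, exact permutation p = 0.333). In IgD-negative cells it took 6.37% and 6.06% against 3.11% and 1.89% (6.21 ± 0.218 against 2.50 ± 0.864, exact permutation p = 0.333). In Jchain-high cells it took 1.19%, 3.98%, 2.04% and 1.31%, and the groups overlapped.

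The rule used for heavy chains was applied to Igkc and Iglc2 only. Cells led by Iglc2 numbered 169, 132, 179 and 157 among naive B cells with a leading light chain, or 5.92%, 5.60%, 3.83% and 3.76%. In IgD-negative cells they numbered 7, 9, 7 and 2, or 7.29%, 9.78%, 4% and 1.63%, and in Jchain-high cells 0, 2, 2 and 0. Iglc2 UMIs were spread far beyond these cells, since 93.5% to 97.9% of naive B cells held at least 1, and 71.5% to 81.9% held at least 3 of both Igkc and Iglc2. In T cells 2.20% to 4.51% held an Iglc2 UMI, and there Iglc2 took 19.7% ± 4.26 of light chain UMIs in Control against 13.3% ± 1.94 in EV (SD, n = 2 each). Thinned to 1000 UMIs, 71.1%, 69.2%, 54.4% and 59.2% of naive B cells held one.

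Iglc1 and Iglc3, other lambda genes, were also called lower in naive B cells. Iglc1 was at 596 and 559 against 339 and 421 CPM (log2 -0.57 ± 0.12, edgeR adjusted p = 0.041). Iglc3 was at 985 and 1020 against 653 and 716 CPM (log2 -0.51 ± 0.11, edgeR adjusted p = 0.039). In IgD-negative cells Iglc3 was called lower (log2 -1.05 ± 0.21, edgeR adjusted p = 0.032) and Iglc1 was not (-0.21 ± 0.19, 0.58). In Jchain-high cells Iglc3 was again called lower (-1.34 ± 0.24, edgeR adjusted p = 0.025), and Iglc1 was not (-0.47 ± 0.24, 0.52). Iglc4 had at most 74 UMIs per library and was not called where it was tested (log2 -0.50 in naive B cells, edgeR adjusted p = 0.32).

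**Figure D4:**
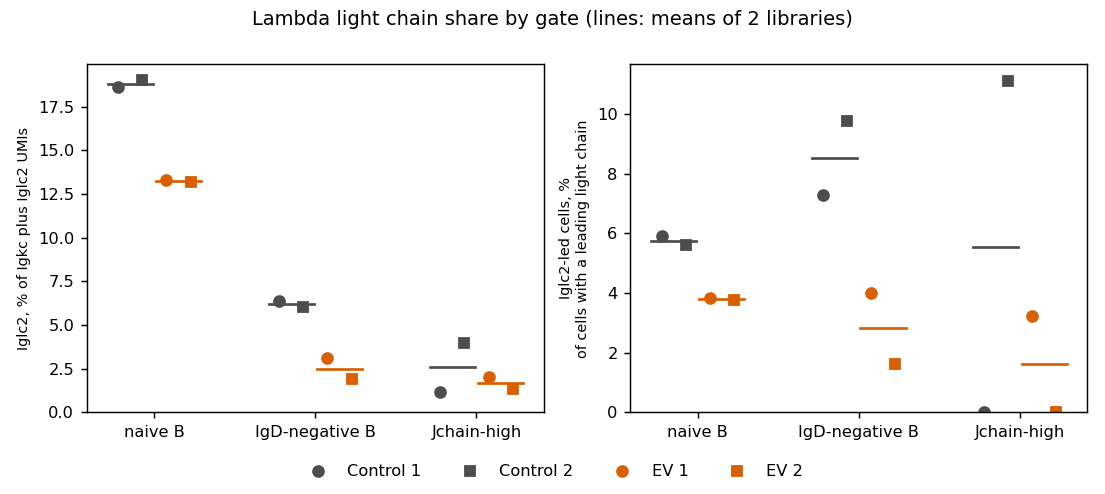
Iglc2 as a percentage of Igkc plus Iglc2 UMIs (left), and cells led by Iglc2 as a percentage of cells with a leading light chain (right), in 3 gates, with 1 point per library and a line at each group's mean. In naive B cells the Control points lie at 18.6% and 19.0% and the EV points at 13.3% and 13.2% on the left.

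T cells held immunoglobulin UMIs too. Igkc was higher in the T cells of EV libraries, at 15.2 and 14.9 against 29.5 and 28.7 CPM (log2 0.96 ± 0.08, edgeR adjusted p = 0.016). T cells with an Igkc UMI were 9.05%, 9.31%, 22.3% and 21.8%, and after thinning 1.59%, 1.39%, 3.06% and 2.91%. It was the only member called there of 6 tested, in a gate where 0.612% of 14222 genes were called, 0.52% higher. With only Control 2 or only Control 1 left in that group it was not called, like nearly all genes, at log2 fold changes of 0.97 and 0.96. By mean CPM Igkc was 1.93-fold higher in the T cells and 1.85-fold higher over all cells of the EV libraries.

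T cells held Ighm at 183 and 183 against 165 and 180 CPM (log2 -0.07 ± 0.07, edgeR adjusted p = 0.63), and 61.7% to 70.0% of them had an Ighm UMI. The ratio of Ighm to Igkc UMIs was 0.288, 0.274, 0.249 and 0.257 in naive B cells and 12.0, 12.3, 5.60 and 6.29 in T cells of the same libraries. It was 0.404, 0.0434, 0.146 and 0.0693 in IgD-negative and 0.424, 0.0189, 0.150 and 0.0805 in Jchain-high cells. The source of the Ighm UMIs in T cells was not tested. In the B cell gates Ighm lay above this level, at 1573 to 1834 CPM in naive B cells.

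**Figure D5:**
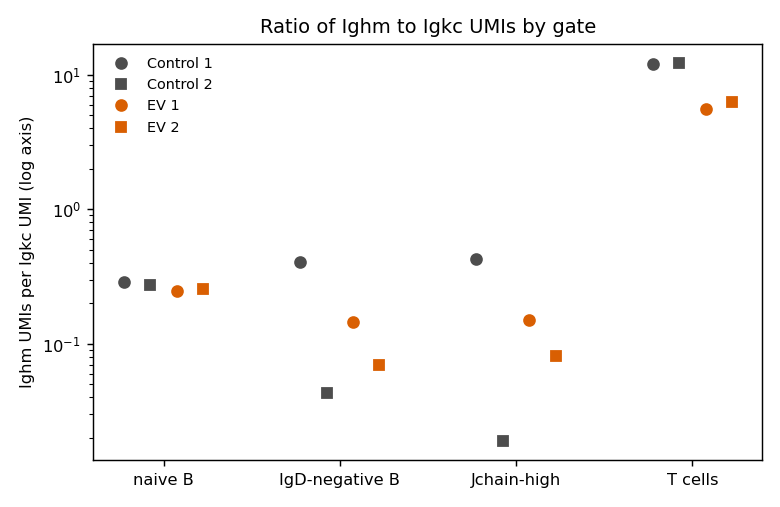
Ighm UMIs per Igkc UMI (log axis) in each gate, with 1 point per library. The naive B points lie between 0.249 and 0.288 and the T cell points between 5.60 and 12.3.

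Each member had its own order of levels across gates. Ighm was at 165 to 183 CPM in T cells, 1573 to 1834 in naive, 916 to 7200 in IgD-negative B and 1126 to 33149 in Jchain-high cells, with overlap among the last 3. Igkc was at 14.9 to 29.5 CPM in T cells, 6282 to 6739 in naive, 11229 to 25320 in IgD-negative B and 14670 to 78217 in Jchain-high cells, with overlap only between the last pair. Iglc2 was at 2.98 to 5.05 CPM in T cells and between 305 and 2462 in the B lineage gates, which overlapped. Ighd was highest in naive B cells by the rule, at 38.7, 18.7, 40.0 and 49.7 CPM in Jchain-high cells and 5.53 to 7.18 CPM in T cells. Jchain was at 0.287 to 0.630 CPM in T cells, 1.81 to 57.3 in naive and 1183 to 2470 in IgD-negative B cells, ranges that did not overlap. The 4 IgG genes reached their highest values in Jchain-high and IgD-negative cells, with library ranges that overlapped between these gates. Igha was low in all of them, at 3.38 to 4.52 CPM in naive, 1.86 to 8.58 in IgD-negative and 6.94 to 23.4 CPM in Jchain-high cells, ranges that lie close together or overlap. Of all Igha UMIs, 82.1% to 85.7% were in naive B cells, with at most 3.52% of a library's Igha UMIs in its T cells. Of all Jchain UMIs, 91.7% to 97.2% were in Jchain-high cells, which were chosen for them.

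Among genes of class switching and of its signals (28 listed), 4 of 28 tested were called higher and 0 lower in naive B cells, where 2.46% of all genes were called higher and 1.41% lower. Among them were Batf (log2 0.78, edgeR adjusted p = 0.047) and Bcl6 (0.53, 0.038), transcription factors of activated and germinal centre B cells, and Ifngr2 (0.40, 0.033), a subunit of the interferon gamma receptor. The list's median log2 fold change was 0.11 against -0.003 for all genes. Cycling markers (5 genes) in the naive gate summed to 24.3 and 12.9 against 81.5 and 153 CPM, and their part was not tested. In IgD-negative cells edgeR and DESeq2 both called 0 of 26, where edgeR called 3.52% of all genes. DESeq2 called 234 of 8970 genes there and gave 1392 no adjusted p. Of the 26, 7 had an unadjusted edgeR p under 0.05, with a list median of 0.01. In Jchain-high cells 1 of 26 was called higher, where 0.0989% of all genes were called higher and 0.309% lower. It was the DNA repair gene Apex1 (log2 3.38, edgeR adjusted p = 0.044), with a list median of 0.19 against 0.04 for all genes. DESeq2 called 0 of these 26, where it called 43 of 8085 genes and gave 6583 no adjusted p.

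Of the secretion programme (26 genes listed), 3 of 25 tested were called higher and 1 lower in naive B cells, where 2.46% of all genes were called higher and 1.41% lower. The 3 were Creld2 (log2 0.81, edgeR adjusted p = 0.012) and Pdia6 (0.43, 0.026), which help protein folding in the endoplasmic reticulum, and Xbp1 (0.50, 0.038), a transcription factor of secretory cells. The list's median was 0.18. Irf4, a transcription factor of activated B and plasma cells, was called lower (-0.62, edgeR adjusted p = 0.024). In IgD-negative cells 3 of 24 were called higher and 0 lower, where 2.17% of all genes were called higher and 1.35% lower. They were Creld2 (log2 1.67, edgeR adjusted p = 0.011), the chaperone Hspa5 (1.31, 0.011) and Pdia6 (0.99, 0.028), with a list median of 0.65. The cycling markers of these cells were at 281 and 692 against 1641 and 1495 CPM, and their part was not tested. In Jchain-high cells 2 of 24 were called lower, where 0.309% of all genes were called lower and 0.0989% higher. They were Ssr4 (log2 -1.65, edgeR adjusted p = 0.0053) and Sec11c (-1.28, 0.019), which act where secreted proteins enter the endoplasmic reticulum, with a list median of -0.67. There the share of immunoglobulin-rich cells also differed, as given above.

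Of receptors and partners of immunoglobulin (20 listed), 4 of 19 tested were called lower and 0 higher in IgD-negative cells, where 1.35% of all genes were called lower and 2.17% higher. They were Cr2 (log2 -1.20, edgeR adjusted p = 0.016), the complement receptor that B cells use as coreceptor, Fcer2a (-1.12, 0.035), the low-affinity IgE receptor, Fcmr (-0.96, 0.048), the IgM receptor, and Cd72 (-0.93, 0.043), an inhibitory coreceptor. The list's median was -0.39. In the same cells the summed B cell markers were at 7485 and 6889 against 5062 and 5961 CPM, beside the difference in cycling markers given above, and the part of either was not tested. In naive B cells 1 of 20 was called lower, where 1.41% of all genes were called lower and 2.46% higher. It was Tnfrsf13b, a receptor for survival factors of B cells (log2 -0.39, edgeR adjusted p = 0.043), with a list median of -0.03. In Jchain-high cells edgeR called 0 of 17, where it called 0.408% of all genes, and 3 were at an unadjusted p under 0.05. DESeq2 called 2, where it called 43 of 8085 genes and gave 6583 no adjusted p. The list median was -0.19.

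Across the 14858 cells of the 3 B lineage gates, the genes most like a member in log-normalized level were compared by Pearson's r over 10840 genes, as a description over cells that share 4 libraries and their depth. Jchain was most like Slpi (r = 0.61), a secreted protease inhibitor, and Pclaf (0.55), a gene of DNA replication. Ighg1 was most like Slpi (0.43), Pclaf (0.40) and Birc5 (0.38), the last a gene of cell division. Ighg2b and Ighg2c were most like Slpi as well (0.40 and 0.42). Ighd was most like Malat1 (0.34), a nuclear noncoding RNA, and the B cell genes Bank1 (0.32) and Ebf1 (0.31). Igkc reached 0.31 with Cd74, a chaperone of antigen presentation. For Ighm, Ighg3, Igha and Iglc2 no gene reached 0.3.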

How the data were processed

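Draining lymph node cells of 2 Control and 2 EV mouse libraries were profiled by droplet single-cell RNA sequencing of transcript 3′ ends. The deposited matrices hold raw UMI counts per gene and cell, made by the authors with Cell Ranger 7.1.0 on mm10 per the submitters' processing notes. The annotation release and the handling of introns are not given in the sources used here. No column was left unassigned. Cells with at least 200 genes and under 10% mitochondrial UMIs were kept (33310 of 34323). The study also set upper limits of 5000 genes, 20000 UMIs and 60% ribosomal UMIs, which were tried as an alternative because antibody-secreting cells are large.

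Cells are not replicates, so counts were summed per library and gate and tested between 2 and 2 libraries with edgeR 4.0.16 (quasi-likelihood test, TMM normalization, filterByExpr, Benjamini-Hochberg adjustment over all genes tested, called under 0.05). DESeq2 1.42.0 on R 4.3.3 was an alternative. Single values were compared by the exact two-sided permutation test over libraries. Shares carry 95% Wilson intervals, and a count of 0 allows up to 3 counts. Doublets were marked with the scrublet routine of scanpy 1.11.5 and removed only in an alternative. Cells were thinned to 1000 UMIs for comparisons across depth, and cells with fewer were left out. For fits, gate shares and isotype shares the gates were drawn again on the thinned counts. For shares of cells with a UMI of a gene the gates of the full counts were kept. Levels of different genes count 3′ ends, 1 per molecule whatever the transcript length, so shares are shares of counted molecules. For genes alike in sequence, such as Iglc2 and Iglc3 or Ighg2b and Ighg2c, the counts need not match the molecules of each gene. Coordinates and sequences came from GENCODE vM21 on GRCm38, whose gene identifiers matched the files for all 10 members. Scripts were tested on simulated data.

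The text names all 10 members, Ighe and the other lambda genes, the 4 most changed called genes per list and direction, and up to 3 genes of highest correlation per member. The members, gates and lists were chosen with earlier results of these data known. One gene that this rule selects is not reported here.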

Additional observations from a re-analysis of the deposited data

Results flagged for a closer look

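For 4 members the EV effect differed between B cell gates by the interaction test in edgeR, given as the log2 fold change in IgD-negative minus that in naive B cells. The difference was -3.73 for Jchain, -1.05 for Iglc2, -3.17 for Ighg2b and -4.14 for Ighg2c. Jchain was called higher in naive B cells (log2 4.09) and had a log2 fold change of -0.06 in IgD-negative cells. In naive B cells the EV libraries held 17 and 32 Jchain-high cells against 2 and 1 in Control. Iglc2 was called lower in both gates. The values of Ighg2b and Ighg2c rested on single cells of Control 2.

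Ighe, the IgE heavy chain gene, was not a member but was read in the same matrices. It had 0 UMIs in both Control libraries, which allows up to 0.0366% and 0.0376% of cells with a UMI, and 55 in the EV libraries, 9 in EV 1 and 46 in EV 2. They lay in 4 and 12 cells, and 1 cell of each library held 55.6% and 63.0% of them. In EV 2, 36 of the 46 were in the naive gate. It was below the expression filter in every fit within a gate.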

How the results depend on the processing

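With 4 libraries, depth limits what can be said of Ighg2b, Ighg2c, Ighg3 and Igha, whose totals lay in few cells, and of Jchain-high cells, of which Control held 10 and 18. The cause of the changes below was not tested.

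Ighg1 over all cells kept its call in 13 of 13 alternatives (log2 3.37 to 8.09), Igkc in 13 of 13 (0.66 to 0.99) and Ighg3 in 13 of 13 (3.1 to 5.76). In IgD-negative cells Ighg1 kept it in 13 of 14 (2.54 to 6.42) and Iglc2 in 13 of 14 (-1.88 to -0.57). Counts of members called are given beside the genes called of those tested in the same fit. Over all cells 5 members (1762 of 16311 genes) became 3 after thinning (730 of 12301). The 3 in naive B cells (511 of 13214 genes) became 1 after thinning (200 of 9489) and 1 within the study's upper limits (353 of 13021). The 1 within the upper limits was another member, since Jchain, Ighg3 and Iglc2 all lost their call there. These counts include Ighd, which the gate used. The 2 in IgD-negative cells (316 of 8970 genes) became 6 without the expression filter (1090 of 16856) and 0 within the upper limits (107 of 7613). The 5 in Jchain-high cells, Jchain included, became 3 with DESeq2, 8 without the filter, 0 after thinning, 0 within the upper limits and 8 at a limit of 2 Jchain UMIs, and 7 to 8 when each library was left out (8 without EV 1 or EV 2). The 1 in T cells (87 of 14222 genes) became 2 without the filter (1471 of 22373). The 4 of the test between gates (349 of 12981 genes) became 0 after thinning (1 of 9499) and 1 within the upper limits (46 of 12798). They became 2 without doublets (329 of 12950) and 2 with stricter gates (45 of 12708).

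Ighg2c in Jchain-high cells turned to 2.04 within the upper limits. Between gates, Ighg2b turned to 3.31 within the upper limits and 1.28 without the cell richest in heavy chain UMIs (added after seeing the data), and ran from -4.88 to 12.71 when each library was left out (12.71 without Control 2). Ighg2c turned to 2.39 within the upper limits and ran from -7.04 (without EV 2) to 3.40 (without Control 2). Jchain turned to 0.72 after thinning. The EV minus Control difference in the class-switched share was -3.97 points in IgD-negative cells after thinning, with the gate drawn again on the thinned counts. It ran from -29.8 to 58.1 points there and from -35.9 to 58.2 points in Jchain-high cells when each library was left out, lowest without Control 1 and highest without Control 2. The difference in the IgG share of switched UMIs was 0 when cells were counted by leading gene, and ran from -0.158 to 2.52 points with the same libraries left out.

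Replicate numbers 1 and 2 occur in both groups. Same-numbered libraries did not deviate together in the gates (r from -0.0087 to 0.050, and 0.19 over all cells), so the number was not read as a pairing. With the replicate block, 4 members were called in IgD-negative cells (843 of 8970 genes) and 2 in T cells (1596 of 14222). Ighg1 in Jchain-high cells was not called with the block (log2 5.20, edgeR adjusted p = 0.053).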
